A study of Mus musculus with 16 samples.

Results

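The mRNA of dorsal root ganglia (DRG) was compared with that of the spinal cord in mice that had no nerve injury. The comparison was the tissue difference in the sham arm of a ribosome profiling study of spared nerve injury (SNI), a model of neuropathic pain in which branches of the sciatic nerve are cut. A gene was included if it was annotated as protein coding and had more than 127 reads summed over the 4 libraries, which left 13560 of the 22040 protein-coding genes and of the 53465 genes of all types in the table. At the border of this rule, Gm5141 was 1 of 9 genes left out at 127 reads and Il17rb was 1 of 11 genes that passed with 1 read more.

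The sham DRG group held 2 pools of L3 to L5 ganglia, and the sham spinal cord group held 2 pools of the dorsal part of the corresponding lumbar segment. All pools came from C57BL/6J females that were operated on at 8 weeks of age and killed 30 days later. Both groups share the sham operation, which exposed the sciatic nerve without harming its branches, so neither group is from unoperated mice. Each library was made from fragmented poly(A) mRNA of a pool of 10 animals, and n = 2 pools stands for every tissue value given here. The p-values given below therefore rest on counting noise and on a spread between pools that was estimated with all genes together. They do not measure the spread between mice. Nothing in the labels says that a DRG pool and a cord pool of the same number came from the same mice.

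The DRG lies outside the blood-brain barrier and holds the cell bodies of the sensory neurons that innervate skin, muscle and viscera, together with satellite glia and Schwann cells. The dorsal horn receives the central ends of these neurons and processes their signals with local excitatory and inhibitory interneurons, supported by astrocytes, oligodendrocytes and microglia. An axon that enters the cord crosses from Schwann cell myelin to oligodendrocyte myelin, and the dorsal part of a cord segment can carry pieces of dorsal root.

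The DRG libraries held 20165129 and 18176471 reads in genes, against 27233473 and 22405013 reads in the spinal cord libraries. Protein-coding genes took 97.0% of the reads in both DRG libraries and 97.6% and 97.7% in the spinal cord libraries. The DRG pools differed by little more than sampling noise, with a mean chi-square per gene of 1.06, where 1 is what counting alone gives, and the cord pools by more (1.76). The common biological coefficient of variation was 0.0156, so a small difference between tissues could pass a test. A gene is therefore called higher or lower where the adjusted p was under 0.05 (edgeR quasi-likelihood test, Benjamini-Hochberg adjustment over 14706 genes), and called over 2-fold where the same fit differed from a 2-fold change at this threshold. Levels are CPM (read counts scaled to a common library size) with trimmed-mean (TMM) factors, and log2 fold changes are DRG over spinal cord with their standard error.

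Most genes differed between the tissues. Of the 13560 genes, 5685 (41.9%) were called higher in DRG and 5744 (42.4%) lower, and the pools of the 2 tissues did not overlap in 91.4%. Over 2-fold calls numbered 1674 genes higher in DRG (12.3%) and 1723 lower (12.7%), and the median log2 fold change over all genes was -0.01. This balance depends on the TMM factors, which centre the ratios near 0, and is not a result about the tissues. With library sizes alone, the median was -0.08, with 5177 genes higher and 6355 lower. The extremes were less even. The ratio of mean levels exceeded 100-fold for 49 genes in the direction of DRG and for 10 in the direction of spinal cord, whereas 287 and 369 genes exceeded 10-fold. The DRG libraries held fewer reads, and depth limits such ratios. Among 8154 genes with 20 CPM or more in sham cord mRNA, 1 had a log2 fold change below -7 in sham mRNA. In SNI mRNA 21 of them did, and in sham footprints 38. The uneven extremes are therefore not read as a tissue result, and their source was not tested. Genes without a read in 1 tissue were rare, with 4 genes at 0 reads in both spinal cord pools and 1 gene at 0 reads in both DRG pools.

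The largest fold changes toward DRG included well-known genes of sensory neurons. Prdm12, a transcription factor needed for nociceptor development (chromosome 2, 31640037 to 31655795 on GRCm38), had 230 and 234 CPM in DRG, against 0.357 and 0.217 CPM in spinal cord, a log2 fold change of 9.59 ± 0.34. Scn10a, the tetrodotoxin-resistant sodium channel Nav1.8 (chromosome 9, 119608456 to 119719322), had 664 and 665 CPM in DRG and 0.858 and 1.17 CPM in spinal cord (9.37 ± 0.18). Its neighbour Scn11a, which encodes Nav1.9 (chromosome 9, 119753759 to 119825456), had 455 and 448 CPM in DRG and 1.07 and 0.652 CPM in spinal cord (8.99 ± 0.20). The ranking took only genes over 2-fold whose pools did not overlap between tissues, so the separation of the pools was set by the choice.

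Avil, the actin-binding protein advillin of peripheral sensory neurons, reached 464 and 463 CPM in DRG and 0.965 and 1.13 CPM in spinal cord (8.79 ± 0.18). Tmem233, a membrane protein that can associate with the sodium channel Nav1.7, had 843 and 828 CPM in DRG and 1.00 and 1.39 CPM in spinal cord (9.47 ± 0.17). Tlx2, a homeobox transcription factor, stood at 130 and 132 CPM in DRG and 0.25 and 0.0434 CPM in spinal cord (9.66 ± 0.50). Tmem45b and Trappc3l belonged to the same group of extremes, with log2 fold changes of 9.12 ± 0.40 and 8.93 ± 0.42. The exons of Avil, Prdm12 and Tmem45b overlap a gene on the opposite strand (Tsfm, Gm13425 and 4930434F21Rik), and since the sequencing was described as not strand-specific, reads of such partners cannot be told apart. The same limit holds for Asic4, Cacna1h, Cd9, Ckm, Cldn19, Col9a3, Glra1, Glul, Grin2b, Hcn3, Hmgcs1, Itga7, Itgb4, Maf, Map2, mt-Co1, P2ry12, Pou3f1, Prx, Scn9a, Slc1a2, Syn1, Trpm8 and Uchl1, and Cd74, Elavl3, Mobp and Rps3 overlap a gene on their own strand.

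The 4 genes with 0 reads in both cord pools were Kcnk18, Hmx1, Mrgprx1 and Cyp4f39. Kcnk18, the two-pore potassium channel TRESK, had 11.9 and 10.3 CPM in DRG, which is at least 93.7-fold higher than the level of 3 reads per cord library. Hmx1, a homeobox factor of sensory ganglia whose exons overlap 4930442P19Rik on the other strand, had 8.61 and 9.61 CPM in DRG, at least 76.7-fold higher. Mrgprx1, a Mas-related receptor of itch neurons, had 5.50 and 5.93 CPM in DRG, at least 48.1-fold higher. The cytochrome P450 gene Cyp4f39, at 4.53 and 4.58 CPM in DRG, was at least 38.4-fold higher. These 4 genes are low in absolute level, and the bounds are set by the depth of the cord libraries.

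Of the 12 genes with the largest fold changes toward spinal cord, 6 encode developmental transcription factors. Pax6, a homeobox factor of the neural tube that persists in dorsal horn neurons (chromosome 2, 105668900 to 105697364), had 0.0509 and 0 CPM in DRG, against 9.33 and 11.1 CPM in spinal cord. The DRG value rests on 1 read, and the ratio of cord to DRG was 378, with a 95% counting interval of 67.5 to 14946. Gbx2, a homeobox factor whose exons overlap D130058E05Rik on the other strand, had no read in DRG and 3.75 and 3.65 CPM in spinal cord, at least 23.0-fold lower in DRG. Tfap2b, with 2 reads in DRG, had a ratio of cord to DRG of 165 (45.4 to 1367), and Irx1, also with 2 reads in DRG, a ratio of 137 (37.5 to 1131). The intervals of these 3 ratios overlap widely, so no order among them can be read.

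Lbx1, the factor that specifies dorsal horn interneurons, was measured with more reads. It had 0.306 and 0.283 CPM in DRG and 29.1 and 28.8 CPM in spinal cord (-6.59 ± 0.42). Sall3, a zinc finger transcription factor, had 0.662 and 0.170 CPM in DRG and 40.8 and 39.3 CPM in spinal cord (-6.53 ± 0.38). Slc18a3, the vesicular acetylcholine transporter, had 0.408 and 0.170 CPM in DRG and 31.2 and 33.8 CPM in spinal cord (-6.75 ± 0.44). Tunar (-7.07 ± 0.33), Neu4, Fam181a, Ninj2 and Tmem215 completed the 12 genes. The DRG pools together held 4 reads of Neu4, a sialidase of the oligodendrocyte lineage, 3 of Tmem215, 2 of Ninj2 and 1 of Fam181a.

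Differences in level were also compared per length of transcript. The largest differences of mean RPKM, which is CPM divided by the exonic length of the gene in kilobases, toward DRG were those of Prph, Calca, Sncg, Tppp3, Hbb-bs, Uchl1, Tmsb4x and Nefl. Sncg, which encodes gamma-synuclein, had 1143 and 1157 CPM in DRG, against 62.1 and 64.7 CPM in spinal cord (4.18 ± 0.03). Tppp3, a tubulin polymerization-promoting protein, had 1873 and 1907 CPM in DRG and 221 and 235 CPM in spinal cord (3.05 ± 0.02). Tmsb4x, the actin-sequestering thymosin beta 4, had 2646 and 2630 CPM in DRG and 788 and 822 CPM in spinal cord (1.71 ± 0.02). These genes too were taken only from those over 2-fold whose pools did not overlap. The lack of overlap was thus set by the choice, and it held for 91.4% of all genes.

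Toward the spinal cord the largest RPKM differences included those of Mbp, Sparcl1, Vsnl1, mt-Co1, Ptgds, Cst3 and Fth1. Sparcl1, a matricellular protein made by astrocytes, had 437 and 427 CPM in DRG and 2758 and 2821 CPM in spinal cord (-2.69 ± 0.02). Vsnl1, a neuronal calcium sensor, had 217 and 224 CPM in DRG and 1333 CPM in both cord pools (-2.59 ± 0.02). Ptgds, prostaglandin D2 synthase, had 378 and 389 CPM in DRG and 1298 and 1335 CPM in spinal cord (-1.78 ± 0.02). Cst3 (cystatin C) and Fth1 (ferritin heavy chain) were lower in DRG by smaller amounts, -1.20 ± 0.02 and -1.09 ± 0.02.

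**Figure D1:**
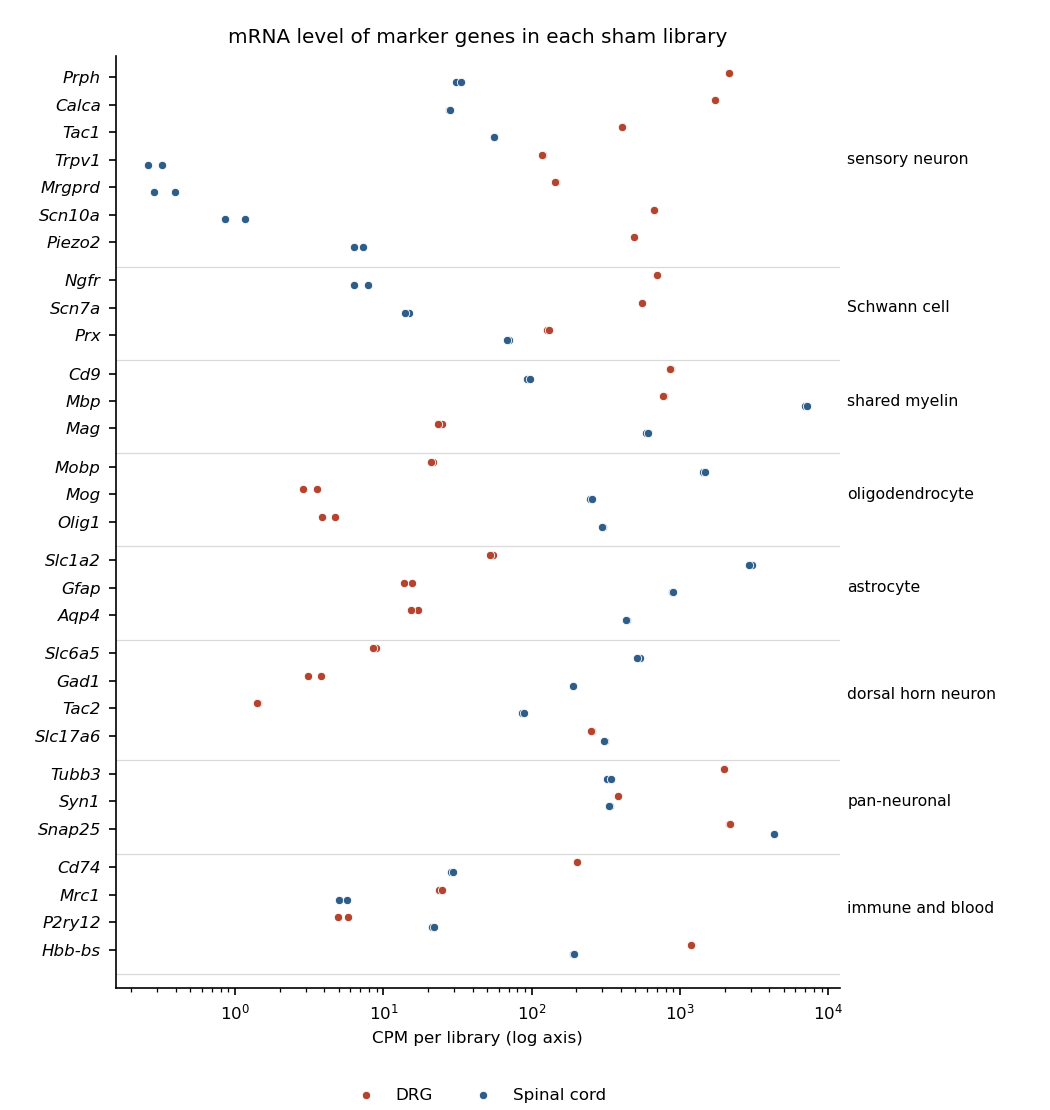
The horizontal log axis gives CPM of marker genes, 1 point per sham library, with the 2 DRG pools drawn above the 2 spinal cord pools in each row and the marker class at the right. Replicate pools nearly coincide: Prph is at 2142 and 2134 CPM in DRG and 31.1 and 33.4 CPM in spinal cord, while Mbp is at 784 and 765 CPM in DRG and 6988 and 7181 CPM in spinal cord.

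The tissues were described with lists of cell-type markers. The lists were written from general knowledge but with earlier results of these data known, so they are no independent check of the labels. Every list count below stands beside the shares over all genes, 41.9% called higher and 42.4% lower, and 12.3% and 12.7% over 2-fold. All 12 genes of sensory neuron identity were called over 2-fold higher in DRG, with a median log2 fold change of 5.84 beside -0.01 over all genes. Prph, the intermediate filament peripherin, had 2142 and 2134 CPM in DRG and 31.1 and 33.4 CPM in spinal cord (6.05 ± 0.04, adjusted p = 5.89e-56 by edgeR). Isl1 and Isl2, LIM homeobox factors of sensory neurons, had log2 fold changes of 5.73 ± 0.13 and 6.93 ± 0.15. Pou4f1, the sensory factor BRN3A, was less one-sided, with 290 and 298 CPM in DRG and 21.1 and 21.6 CPM in spinal cord (3.79 ± 0.05). In bulk samples of this kind, fewer cells of a type and less RNA per cell cannot be told apart, and this holds for every list below.

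Peptidergic nociceptors, which release CGRP and substance P, were represented by 11 genes, all higher in DRG (median 5.95). Calca, the precursor of CGRP, had 1722 and 1728 CPM in DRG and 27.6 and 28.1 CPM in spinal cord (5.95 ± 0.04). Tac1, the precursor of substance P, had 405 and 403 CPM in DRG and 56.0 and 55.4 CPM in spinal cord (2.86 ± 0.03). Tac1 is also a transmitter gene of dorsal horn interneurons, and its cord level was closer to its DRG level than that of Calca. Trpv1, the capsaicin and heat receptor, had 120 and 117 CPM in DRG and 0.322 and 0.261 CPM in spinal cord (8.63 ± 0.35).

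Of 17 genes of non-peptidergic nociceptors and itch neurons, 16 reached the read minimum (Mrgprb4 did not), and all 16 were over 2-fold higher in DRG (median 4.95). Mrgprd, a receptor that marks fibres of the epidermis, had 145 and 143 CPM in DRG and 0.286 and 0.391 CPM in spinal cord (8.73 ± 0.33). Nppb, a natriuretic peptide used by itch neurons, had 15.2 and 16.6 CPM in DRG and 0.214 and 0.0869 CPM in spinal cord (6.61 ± 0.52). Trpm8, the cold and menthol receptor, had 13.6 and 13.8 CPM in DRG, and with 4 reads in spinal cord its ratio of DRG to cord was 175 (67.8 to 643). Ret, the GDNF-family receptor that is also expressed by motor neurons, was lower in contrast, with 655 and 641 CPM in DRG and 92.3 and 93.2 CPM in spinal cord (2.81 ± 0.03).

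Markers of large-diameter neurons, the mechanoreceptors and proprioceptors, were called in both directions. Of 11 genes, 8 were called higher in DRG and 3 lower (median 1.12). Piezo2, the channel of touch and proprioception, had 486 and 487 CPM in DRG and 7.29 and 6.34 CPM in spinal cord (6.15 ± 0.07). Runx3, a factor of proprioceptor development, had 16.1 and 17.1 CPM in DRG and 0.0715 and 0.261 CPM in spinal cord (6.67 ± 0.52). Pvalb, the calcium buffer parvalbumin, which cord interneurons also make, had 189 and 187 CPM in DRG and 136 and 147 CPM in spinal cord, a log2 fold change of 0.41 ± 0.03. Ntrk2 (the BDNF receptor TrkB), Whrn (whirlin) and Necab2 (a calcium-binding protein) were lower in DRG, at -0.94 ± 0.03, -1.07 ± 0.06 and -1.26 ± 0.06. Nefh and Ntrk3, at 1.61 ± 0.02 and 1.76 ± 0.03, were higher in DRG although both were above 100 CPM in the cord pools.

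Genes shared by all neurons were called in both directions. Of 23 pan-neuronal genes, 11 were called higher in DRG and 12 lower (median -0.10), beside 41.9% and 42.4% of all genes. The summed level of these 23 genes was 18979 and 19045 CPM in DRG and 18018 and 18125 CPM in spinal cord. Tubb3, the neuronal tubulin, had 1987 and 1977 CPM in DRG and 322 and 344 CPM in spinal cord (2.58 ± 0.02). Stmn2, a microtubule regulator of growing axons, had 1958 and 1968 CPM in DRG and 487 and 489 CPM in spinal cord (2.01 ± 0.02). Uchl1, a ubiquitin hydrolase, had 3350 and 3313 CPM in DRG and 709 and 718 CPM in spinal cord (2.22 ± 0.02). These 3 and the RNA-binding protein gene Elavl4 (1.78 ± 0.03) were the 4 members called over 2-fold higher in DRG.

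Other members of the pan-neuronal list were lower in DRG. Map2, the dendritic microtubule protein, had 178 and 174 CPM in DRG and 875 and 867 CPM in spinal cord (-2.31 ± 0.03). Sv2a, a synaptic vesicle glycoprotein, had 86.6 and 85.9 CPM in DRG and 563 and 565 CPM in spinal cord (-2.71 ± 0.03). Snap25, a subunit of the release machinery, had 2141 and 2183 CPM in DRG and 4303 and 4315 CPM in spinal cord (-1.0 ± 0.02). Among the genes of the list nearest to 0 were Syt1 (-0.10 ± 0.03), Syn1 (0.19 ± 0.02), Elavl3 (-0.31 ± 0.02), Mapt (0.32 ± 0.02) and Rbfox3 (0.35 ± 0.03). These passed the test at these sizes but not the 2-fold test.

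Most genes listed for dorsal horn neurons were lower in DRG. All 16 genes of inhibitory dorsal horn neurons were over 2-fold lower in DRG (median -5.76, or -5.71 with Gbx2 set at its bound), and their summed level was 60.9 and 55.6 CPM in DRG and 2200 and 2138 CPM in spinal cord. Slc6a5, the glycine transporter GlyT2, had 8.92 and 8.53 CPM in DRG and 537 and 513 CPM in spinal cord (-5.91 ± 0.08). Gad1, a GABA-synthesizing enzyme, had 3.82 and 3.11 CPM in DRG and 188 and 191 CPM in spinal cord (-5.76 ± 0.12). Pax2, which marks inhibitory interneurons, had 2.55 and 2.77 CPM in DRG and 37.2 and 35.1 CPM in spinal cord (-3.77 ± 0.15).

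Of 15 measured genes of excitatory dorsal horn neurons, 3 were higher and 12 lower in DRG (median -3.59), 8 of them over 2-fold lower. The summed level of this list differed little, with 990 and 975 CPM in DRG and 1121 and 1125 CPM in spinal cord. Tac2, the precursor of neurokinin B, had 1.43 and 1.41 CPM in DRG and 86.2 and 88.3 CPM in spinal cord (-5.94 ± 0.19). Lmx1b, a homeobox factor of these interneurons, had 1.89 and 2.43 CPM in DRG and 33.6 and 32.6 CPM in spinal cord (-3.95 ± 0.16). Slc17a6, the vesicular glutamate transporter VGLUT2, is used by sensory neurons too, and it differed little, with 257 and 250 CPM in DRG and 313 and 306 CPM in spinal cord (-0.29 ± 0.03). The 3 genes higher in DRG, Tlx3 (3.33 ± 0.06), Zfhx3 (2.48 ± 0.03) and Maf (0.98 ± 0.03), encode transcription factors that sensory neurons also express. All 4 measured genes of cholinergic motor neurons were over 2-fold lower in DRG. Chat, the acetylcholine-synthesizing enzyme, had 0.204 and 0.170 CPM in DRG and was low in spinal cord too, at 9.11 and 8.86 CPM.

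**Figure D2:**
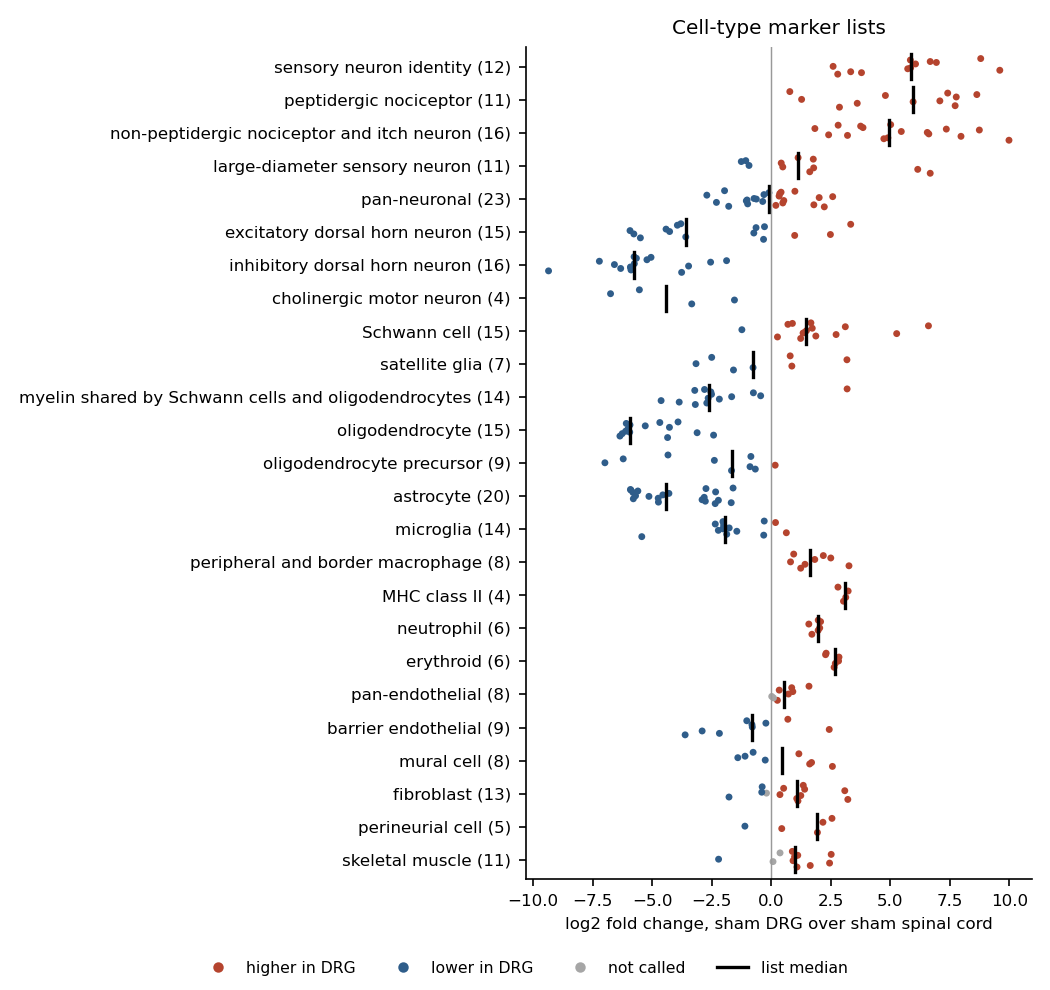
Each point is a gene of a cell-type list, placed by its log2 fold change of sham DRG over sham spinal cord, with called genes in colour, the list median as a black bar and the number of measured genes in parentheses. Sensory neuron lists lie to the right (medians 5.84, 5.95 and 4.95), oligodendrocyte, astrocyte and inhibitory dorsal horn lists to the left (-5.94, -4.43 and -5.76), and the pan-neuronal list spans 0.

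Schwann cell genes were mostly higher in DRG, with 14 of 15 higher and 1 lower (median 1.48). The log2 fold changes of the list ran from -1.24 to 6.6. Ngfr, the neurotrophin receptor p75, which sensory neurons also express, had 697 and 698 CPM in DRG and 7.90 and 6.34 CPM in spinal cord (6.6 ± 0.07). Scn7a, a sodium-sensing channel of non-myelinating Schwann cells, had 554 and 558 CPM in DRG and 14.9 and 13.9 CPM in spinal cord (5.26 ± 0.05).

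Dhh, the hedgehog ligand of Schwann cells whose exons overlap Rhebl1, had 46.8 and 49.3 CPM in DRG and 5.68 and 5.43 CPM in spinal cord (3.11 ± 0.09). Prx, the myelin protein periaxin, had 127 and 130 CPM in DRG and 70.6 and 68.5 CPM in spinal cord (0.88 ± 0.04). Cldn19, a claudin of Schwann cells, gave 57.1 and 53.1 CPM in DRG and 22.4 and 21.4 CPM in spinal cord (1.33 ± 0.06). Prx and Cldn19 were thus readily counted in the cord pools, where Prph and Scn10a were far below their DRG levels. The part of dorsal root tissue in the cord pools was not tested. Pou3f1, a factor of promyelinating Schwann cells that is also used in the central nervous system, was the gene lower in DRG (-1.24 ± 0.11).

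Myelin genes that Schwann cells and oligodendrocytes share were lower in DRG in 13 of 14 cases (median -2.60). Mbp, myelin basic protein, had 784 and 765 CPM in DRG and 6988 and 7181 CPM in spinal cord (-3.19 ± 0.02). Mag, the myelin-associated glycoprotein, had the largest decrease, with 24.9 and 23.3 CPM in DRG and 592 and 604 CPM in spinal cord (-4.63 ± 0.05). Cd9, a tetraspanin of many cell types, was the exception, at 867 and 852 CPM in DRG and 92.4 and 97.3 CPM in spinal cord (3.18 ± 0.03).

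Oligodendrocyte and astrocyte genes were low in the DRG pools. All 15 oligodendrocyte genes were over 2-fold lower in DRG (median -5.94), with a summed level of 141 and 136 CPM in DRG and 3851 and 3879 CPM in spinal cord. Mog, a surface glycoprotein of central myelin, had 3.57 and 2.88 CPM in DRG and 245 and 254 CPM in spinal cord (-6.26 ± 0.13). Olig2, the lineage factor of these cells, had 1.27 and 1.02 CPM in DRG and 70.6 and 71.3 CPM in spinal cord (-5.94 ± 0.21). All 20 astrocyte genes were over 2-fold lower as well (median -4.43). Gfap, the astrocyte filament, had 15.5 and 13.8 CPM in DRG and 879 and 897 CPM in spinal cord (-5.92 ± 0.06), and Slc1a2, the glutamate transporter GLT-1, had 54.7 and 52.6 CPM in DRG and 3045 and 2925 CPM in spinal cord (-5.80 ± 0.03).

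Of 9 genes listed for oligodendrocyte precursors, 8 were lower in DRG, and Cspg4, which pericytes also express, was called higher by 0.16 ± 0.07, a call that 10 of the 14 alternative settings did not keep. Satellite glia surround the sensory cell bodies and share many genes with astrocytes, and their 7 genes divided into 3 higher and 4 lower. Fabp7, a fatty acid binding protein of satellite glia, had 224 and 219 CPM in DRG and 24.7 and 24.3 CPM in spinal cord (3.17 ± 0.04). Kcnj10, the inward rectifier Kir4.1 of both cell types, had 92.6 and 89.3 CPM in DRG and 822 and 810 CPM in spinal cord (-3.16 ± 0.03). Glul, Slc1a3 and Sparc, which astrocytes express strongly, were the other members lower in DRG.

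Immune lists differed in direction. Of 14 microglia genes, 12 were lower in DRG and 2 higher (median -1.93), whereas all 8 measured genes of peripheral and border macrophages were higher (median 1.62). P2ry12, the purinergic receptor of microglia, had 5.81 and 4.97 CPM in DRG and 21.2 and 21.9 CPM in spinal cord (-1.99 ± 0.11). Sall1, a factor of microglial identity that other cord cells can express, gave -5.44 ± 0.26. Mrc1, the mannose receptor of tissue macrophages, had 23.6 and 24.7 CPM in DRG and 5.04 and 5.65 CPM in spinal cord (2.18 ± 0.10). The 4 measured antigen presentation genes of MHC class II were over 2-fold higher in DRG, among them Cd74, the invariant chain, with 202 CPM in both DRG pools and 28.6 and 29.5 CPM in spinal cord (2.80 ± 0.04).

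Blood genes were higher in DRG too, as a measured property of these pools. All 6 erythroid genes were over 2-fold higher (median 2.66), with a summed level of 1773 and 1814 CPM in DRG and 277 and 288 CPM in spinal cord. Hbb-bs alone had 1184 and 1190 CPM in DRG and 189 and 193 CPM in spinal cord (2.64 ± 0.02). Globin genes are near-identical copies, so the division of reads between Hbb-bs and Hbb-bt or between Hba-a1 and Hba-a2 is uncertain. All 6 measured neutrophil genes were higher, and S100a9 had 45.2 and 45.9 CPM in DRG and 10.4 and 11.4 CPM in spinal cord (2.07 ± 0.07). None of the 9 lymphocyte genes reached the read minimum. How far the macrophage and MHC class II differences follow from blood in the tissue was not tested.

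Vessel genes differed by list. Of 9 genes of barrier endothelium, 7 were lower in DRG and 2 higher (median -0.81), while 6 of 8 pan-endothelial genes were higher and 2 were not called (median 0.52). Slco1c1, a thyroid hormone transporter of the blood-brain barrier, had 1.99 and 1.07 CPM in DRG and 19.7 and 18.6 CPM in spinal cord (-3.62 ± 0.21). Mfsd2a, the lipid transporter needed for barrier formation, gave -1.03 ± 0.06, and Cdh5, the VE-cadherin of all endothelium, had 28.4 and 28.9 CPM in DRG and 10.1 and 8.95 CPM in spinal cord (1.58 ± 0.08). Abcg2, a drug exporter that is not restricted to vessels, was the barrier gene with the largest increase in DRG (2.43 ± 0.06), and the summed level of the barrier list was 107% of the cord level in DRG. Of 4 genes of fenestrated endothelium, 2 were higher and 2 lower in DRG. Plvap, which forms the diaphragms of fenestrae, had 12.8 and 12.9 CPM in DRG and 16.9 and 17.8 CPM in spinal cord (-0.43 ± 0.08), and Aplnr, the apelin receptor, was at -1.87 ± 0.16.

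Connective tissue genes were mainly higher in DRG. Of 13 fibroblast genes, 9 were higher and 3 lower (median 1.07), and Dcn, the small proteoglycan decorin, had 802 and 793 CPM in DRG and 87.6 and 84.3 CPM in spinal cord (3.21 ± 0.03). Among 37 measured collagen genes, 27 were higher and 7 lower (median 1.22), and of 35 laminin and integrin genes 22 were higher and 11 lower. Col28a1, a collagen of peripheral glia, had 55.1 and 57.1 CPM in DRG and 1.32 and 1.26 CPM in spinal cord (5.43 ± 0.17). Itga7, a laminin receptor subunit, had 154 and 149 CPM in DRG and 20.3 and 19.7 CPM in spinal cord (2.92 ± 0.05). Col9a3, a cartilage-type collagen, went the other way, with 2.14 and 3.39 CPM in DRG and 16.5 and 17.9 CPM in spinal cord (-2.65 ± 0.16).

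Genes of neighbouring tissues were also present in the pools. Of 11 measured skeletal muscle genes, 8 were higher in DRG and 1 lower, with a summed level of 97.3 and 97.5 CPM in DRG and 41.8 and 42.4 CPM in spinal cord. Among its defining members Ckm, muscle creatine kinase, had 4.99 and 6.16 CPM in DRG and 2.47 and 2.69 CPM in spinal cord. The adipocyte genes Cfd and Fabp4 were over 2-fold higher in DRG, while the other 5 of that list, Adipoq among them, were under the read minimum. The part of muscle and fat in the connective tissue differences was not tested.

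Voltage-gated sodium channels, which set the excitability of sensory axons, differed in composition. Of 14 genes, 7 were higher and 7 lower in DRG, beside 41.9% and 42.4% of all genes. On the RPKM scale, Scn10a and Scn11a made up 36.6% and 33.4% of the summed mRNA of 9 alpha subunits in DRG and 0.18% and 0.21% in spinal cord. The sum leaves out Scn7a, the sodium-sensing relative described above, which was more abundant in DRG than Scn9a in CPM. Scn9a, which encodes Nav1.7, made up 12.2% in DRG and 0.73% in spinal cord, from 354 and 356 CPM in DRG and 6.47 and 6.69 CPM in spinal cord (5.75 ± 0.07). Scn1a and Scn8a, which encode Nav1.1 and Nav1.6, made up 5.59% and 10.3% in DRG and 44.9% and 38.5% in spinal cord. Scn9a, Scn10a and Scn11a were thus each under 1% of this sum in the cord.

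The channels of sensory transduction leaned to DRG, with 18 of 29 TRP, acid-sensing, Piezo and P2X genes higher and 8 lower (median 0.66). Asic3, an acid sensor of sensory neurons, had 109 and 108 CPM in DRG and 0.536 and 0.739 CPM in spinal cord (7.42 ± 0.24). P2rx3, the ATP receptor of nociceptors, had 71.9 and 78.7 CPM in DRG and 1.86 and 1.52 CPM in spinal cord (5.46 ± 0.16). Its exons overlap Ssrp1 on the opposite strand. Asic1, an acid sensor of central and peripheral neurons, was not called, with 104 and 102 CPM in DRG and 105 and 107 CPM in spinal cord. Asic4 went to the cord, at 0.306 and 0.339 CPM in DRG and 12.4 and 13 CPM in spinal cord (-5.28 ± 0.41).

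Potassium and calcium channel genes were called in both directions. Of 73 measured potassium channel genes, 28 were higher and 40 lower in DRG (median -0.27), beside 41.9% and 42.4% of all genes. Of 22 calcium channel genes 7 were higher and 15 lower (median -0.96). Kcnmb1, a beta subunit of the BK channel, had 53.9 and 56.6 CPM in DRG and 0.643 and 0.434 CPM in spinal cord (6.64 ± 0.27). Kcnd2, the A-type channel Kv4.2, had 3.82 and 4.80 CPM in DRG and 79.9 and 77.3 CPM in spinal cord (-4.20 ± 0.12). Cacna1g and Cacna1h encode T-type calcium channels and went opposite ways, with -4.32 ± 0.11 for Cacna1g and 1.12 ± 0.05 for Cacna1h. Cacna2d1, the subunit to which gabapentin binds, had 256 and 254 CPM in DRG and 112 CPM in both cord pools (1.18 ± 0.03), and was 59.1% of the alpha2delta mRNA in DRG and 29.0% in spinal cord by RPKM.

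HCN channels, which carry the hyperpolarization-activated current, were less dominated by 1 member in DRG. Hcn2 was 66.8% of their RPKM in DRG and 92.3% in spinal cord, with 157 and 149 CPM in DRG and 476 and 469 CPM in spinal cord (-1.63 ± 0.03). Hcn3 was 12.9% of their RPKM in DRG and 2.43% in spinal cord, with 38.5 CPM in both DRG pools and 16.0 and 16.3 CPM in spinal cord (1.25 ± 0.06).

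**Figure D3:**
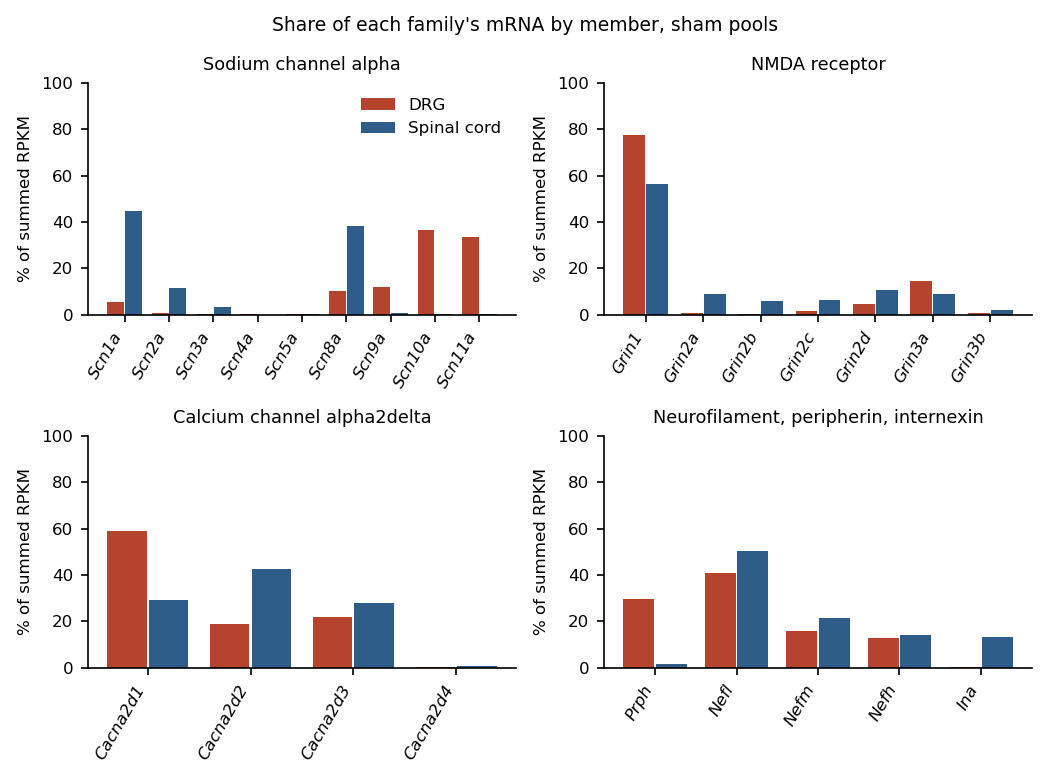
Bars give the percent of a family's summed RPKM contributed by each member in the sham pools, DRG on the left of each pair and spinal cord on the right, as means of 2 pools without error bars. Scn10a and Scn11a hold 36.6% and 33.4% of the mRNA of the 9 sodium channel alpha genes drawn, which leave out Scn7a, in DRG and under 1% in spinal cord, while Cacna2d1 holds 59.1% of alpha2delta mRNA in DRG and 29.0% in spinal cord.

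Receptors for fast inhibition and excitation were lower in DRG. Of 19 GABA and glycine receptor genes, 18 were lower and 1, Gabbr2, was higher by 0.10 ± 0.03 (median -1.84). Glra1, the adult glycine receptor alpha subunit, had 2.24 and 3.11 CPM in DRG and 139 and 140 CPM in spinal cord (-5.71 ± 0.14). Among the GABA-A alpha subunits, Gabra2 was 28.9% of the RPKM in DRG and 11.5% in spinal cord, Gabra3 22.8% in DRG and 48.7% in spinal cord, and Gabra5 11.5% in DRG and 25.7% in spinal cord. The GABA-A alpha subunits thus differed in composition as well as in level.

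Of 25 measured glutamate receptor genes, 21 were lower in DRG and 3 higher (median -2.14). Grin2a and Grin2b, NMDA receptor subunits that set channel kinetics, had log2 fold changes of -5.92 ± 0.16 and -6.06 ± 0.20, whereas the obligatory subunit Grin1 made up 77.8% of the NMDA receptor mRNA in DRG and 56.2% in spinal cord by RPKM. Grik1, the kainate receptor subunit GluK1 of nociceptors, had 225 and 220 CPM in DRG and 18.6 and 16.4 CPM in spinal cord (3.66 ± 0.05). Grik1 was the glutamate receptor gene with the largest rise in DRG and the one of these 25 that passed the 2-fold test in that direction.

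Receptors for acetylcholine and serotonin were called in both directions. Of 7 measured nicotinic subunits, 6 were higher in DRG, led by Chrna6 with 42.0 and 42.3 CPM in DRG and 1.22 and 1.09 CPM in spinal cord (5.18 ± 0.19). Chrna4, the alpha subunit of the common brain receptor, was the gene lower in DRG, with 6.27 and 6.61 CPM in DRG and 74.6 and 75.0 CPM in spinal cord (-3.54 ± 0.09). Of 13 serotonin receptor genes, 7 were higher and 6 lower, beside 41.9% and 42.4% of all genes. The channel subunit Htr3a had 142 and 145 CPM in DRG and 9.33 and 8.39 CPM in spinal cord (4.01 ± 0.07), and Htr1d, a target of the triptans, had 59.3 and 59.0 CPM in DRG and 5.75 and 5.52 CPM in spinal cord (3.39 ± 0.09). Htr2c, a G protein-coupled receptor of the central nervous system, had 2.39 and 2.88 CPM in DRG and 171 and 167 CPM in spinal cord (-6.01 ± 0.14).

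Neuropeptide precursors were called in both directions. Of 23 measured, 8 were higher and 14 lower in DRG (median -2.55), beside 41.9% and 42.4% of all genes. Nmb, neuromedin B of itch-related sensory neurons, had 180 and 176 CPM in DRG and 2.97 and 3.35 CPM in spinal cord (5.82 ± 0.11), though its exons overlap those of Sec11a. Grp, the gastrin-releasing peptide of dorsal horn itch circuits, had 0.255 and 0.226 CPM in DRG and 10.6 and 11.9 CPM in spinal cord (-5.50 ± 0.48). The ligand pair Nmb and Grp therefore lay at opposite ends of the comparison. Cck, cholecystokinin, had 1.63 and 1.24 CPM in DRG and 79.1 and 80.0 CPM in spinal cord (-5.78 ± 0.19).

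Among 13 measured neurotrophic factors and receptors, 9 were higher in DRG and 4 lower (median 1.76). The receptors were the abundant members: besides Ngfr and Ret, the neurotrophin-3 receptor Ntrk3 had 511 and 517 CPM in DRG and 156 and 147 CPM in spinal cord (1.76 ± 0.03). Gfra3, the artemin co-receptor, had 63.5 and 62.7 CPM in DRG and 0.286 and 0.304 CPM in spinal cord (7.72 ± 0.36). Most ligands of the list were too low to measure, since 7 of its 20 genes, including Gdnf, were under the read minimum in these 4 libraries.

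Homeobox genes of the Hox clusters, which record position along the body axis, were lower in DRG in 29 of 31 measured cases (median -1.03). Hoxb8 had 42.2 and 41.9 CPM in DRG and 495 and 488 CPM in spinal cord (-3.55 ± 0.04), and Hoxb9 had 22.8 and 23.2 CPM in DRG and 172 and 170 CPM in spinal cord (-2.90 ± 0.05). Hoxc11 was not called (-0.22 ± 0.12). Hoxd1, which nociceptors express in mice, was the gene higher in DRG, with 27.2 and 28.1 CPM in DRG and 1.89 and 2.04 CPM in spinal cord (3.81 ± 0.15).

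The neuronal cytoskeleton had its own tissue form. Of 10 intermediate filament genes, 8 were higher in DRG and 2, Gfap and Ina, lower. Prph was 29.8% of the RPKM of peripherin, neurofilaments and internexin in DRG and 1.5% in spinal cord, while Ina, alpha-internexin, was 0.48% in DRG and 13% in spinal cord. Nefl, the light neurofilament, had 5327 and 5285 CPM in DRG and 1940 and 1980 CPM in spinal cord (1.44 ± 0.02), and Nefh, the heavy one, had 1979 and 1986 CPM in DRG and 628 and 669 CPM in spinal cord (1.61 ± 0.02). The exons of Nefl overlap Nefm on the opposite strand and those of Ina overlap Nt5c2.

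**Figure D4:**
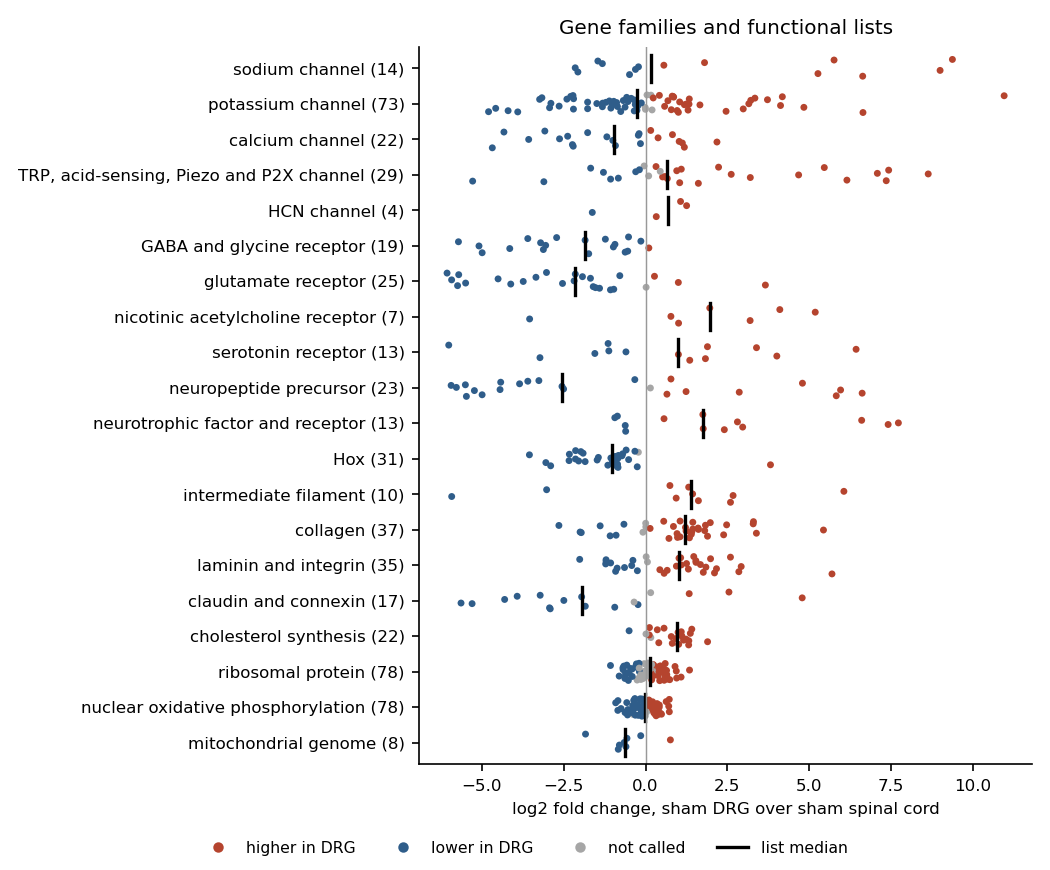
Each point is a gene of a family or functional list, placed by its log2 fold change of sham DRG over sham spinal cord, with called genes in colour and the list median as a black bar. GABA, glycine and glutamate receptors lie to the left (medians -1.84 and -2.14), ion channel families reach far to both sides, and ribosomal protein and oxidative phosphorylation genes lie close to 0.

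Cell junction genes were mostly lower in DRG. Of 17 measured claudin and connexin genes, 12 were lower in DRG and 3 higher (median -1.95). Gjb6, connexin 30 of astrocytes, had 7.49 and 7.52 CPM in DRG and 149 and 147 CPM in spinal cord (-4.30 ± 0.08). Cldn1, the claudin of the perineurium, had 40.1 and 41.7 CPM in DRG and 7.79 and 6.04 CPM in spinal cord (2.55 ± 0.09).

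Cholesterol synthesis genes were higher in DRG in 19 of 22 cases and lower in 1 (median 0.96). Hmgcs1, an early enzyme of the pathway, had 826 and 813 CPM in DRG and 324 and 311 CPM in spinal cord (1.37 ± 0.02). Sqle, squalene epoxidase, had 184 and 178 CPM in DRG and 71.2 and 73.9 CPM in spinal cord (1.32 ± 0.03). Insig1, which holds the pathway's regulator back, was the gene lower in DRG (-0.50 ± 0.04). Mbp, a gene of cholesterol-rich myelin, went in the other direction.

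Housekeeping lists differed by little. Of 78 ribosomal protein genes, 36 were higher and 20 lower in DRG (median 0.12), and 1 of them, Rpl39, passed the 2-fold test (1.34 ± 0.07). Rps3 had 272 and 268 CPM in DRG and 271 and 280 CPM in spinal cord and was not called. Many of these genes have processed copies in the genome, and their unique reads are uncertain. Of 78 nuclear genes of oxidative phosphorylation, 35 were higher and 34 lower (median -0.01), beside 41.9% and 42.4% of all genes. None of these 78 passed the 2-fold test. Cox6a1, a subunit of cytochrome oxidase, was at 0.73 ± 0.02 and Atp5c1, the gamma subunit of ATP synthase, at -0.91 ± 0.03.

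The mitochondrial genome took a smaller part of the DRG libraries, 1.69% and 1.71% of reads in DRG and 2.91% and 2.88% in spinal cord. Of 8 measured protein-coding genes, 7 were lower in DRG. mt-Co1, a core subunit of cytochrome oxidase, had 1433 and 1452 CPM in DRG and 5220 and 5052 CPM in spinal cord (-1.83 ± 0.02), and mt-Cytb had 4142 and 4216 CPM in DRG and 7268 and 7274 CPM in spinal cord (-0.80 ± 0.02). mt-Nd6 was higher (0.76 ± 0.03), but it lies opposite mt-Nd5 and its reads are uncertain.

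The same tissue comparison was available in SNI pools, which share no library with the sham pools. There, 1874 genes (13.6%) were over 2-fold higher in DRG and 1765 (12.8%) lower. Of the 1674 genes over 2-fold higher in sham DRG, 1673 were measured in SNI pools and 1563 (93.4%) were called over 2-fold higher again. Of the 1723 lower genes, 1712 were measured and 1576 (92.1%) were called again, with 3 of opposite sign. Across 13541 genes Pearson's r of the 2 log2 fold changes was 0.98, a description over genes that are not independent. The difference between the 2 comparisons itself exceeded 2-fold in 20 genes (0.147% of 13560).

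Footprints of the same sham lysates, which report mRNA engaged by ribosomes, were a further readout. They gave 1433 genes (11.6%) over 2-fold higher in DRG and 1493 (12.1%) lower. Of the genes over 2-fold higher in sham DRG mRNA, 1497 were measured and 1202 (80.3%) were called over 2-fold higher in footprints, and of those lower, 1472 were measured and 1280 (87.0%) were called. Across 12225 genes r was 0.96. Of 5 measured genes of ependymal cells, 2 were higher and 3 lower in DRG mRNA (median -1.71), beside 41.9% and 42.4% of all genes. Only 2 of the 5 had a footprint value. Foxj1, the factor of ciliated ependymal cells, was 1 of the 2 genes higher and a case in which the readouts parted. It had 45.9 and 43.9 CPM of mRNA in DRG and 38.7 and 40.8 CPM in spinal cord (0.18 ± 0.05), but 0.548 and 0.698 CPM of footprints in DRG and 15.1 and 15.0 CPM in spinal cord (-4.50 on the log2 scale). The difference between the readouts was not tested.

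The lowest log2 fold changes were deeper in the other readouts. Of 8154 genes with 20 CPM or more in sham cord mRNA and a value in all 3 readouts, 17 had a log2 fold change below -6 in sham mRNA, 48 in SNI mRNA and 70 in sham footprints, and 1, 21 and 38 lay below -7. Mog stood at -6.26 in sham mRNA, -8.11 in SNI mRNA and -8.51 in sham footprints. Mobp, a myelin basic protein of oligodendrocytes, had 21.4 and 21.1 CPM in sham DRG mRNA and 1428 and 1476 CPM in sham cord mRNA (-6.09 ± 0.05), against -9.06 in SNI mRNA. The source of the reads of central glial genes in the sham DRG mRNA libraries was not tested.

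**Figure D5:**
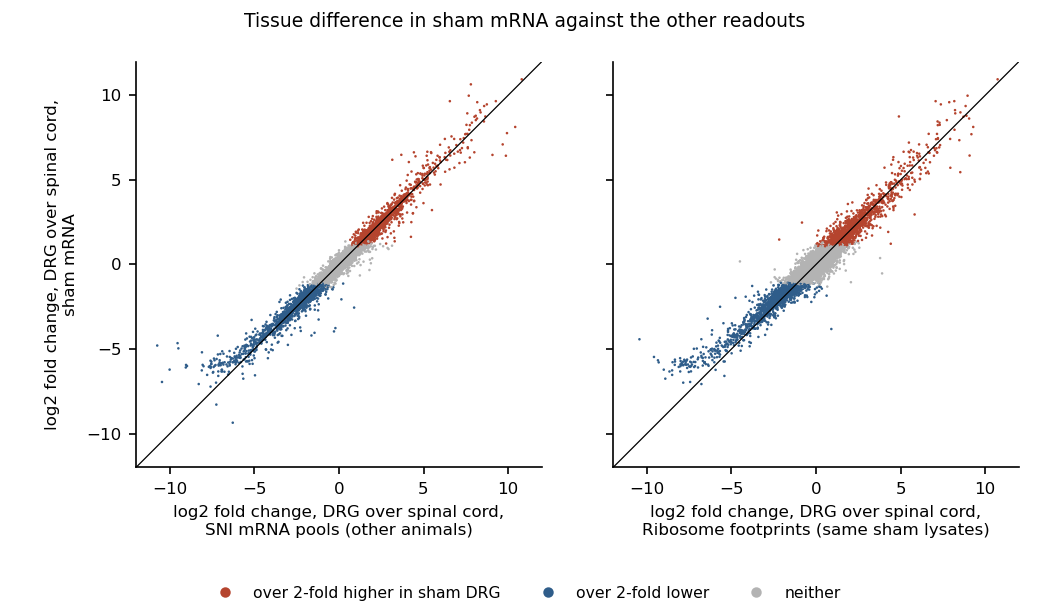
Each point is a gene, with its log2 fold change of DRG over spinal cord in sham mRNA on the vertical axis and in SNI mRNA (left) or sham footprints (right) on the horizontal axis, and the line marks equality. Points follow the line over most of the range (r = 0.98 and 0.96), and at the lower left they flatten near -6 in sham mRNA while the other readouts reach -9. Values of genes with 0 reads in a tissue depend on the prior count.

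Median gene length was 27893 bases for the 1674 genes over 2-fold higher in DRG, 31501 for the 1723 lower genes and 25176 for the other 10163. Median RPKM of the genes higher in DRG was 10.0 in DRG and 2.06 in spinal cord, and of those lower 1.48 in DRG and 7.91 in spinal cord. In 470 of the higher and 598 of the lower genes, a tissue had 127 or fewer reads, so a fold change there rests on few reads on that side.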

How the data were processed

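Sham DRG and sham spinal cord mRNA libraries (2 pools each) were compared. The read counts per gene were deposited by the authors, who removed contaminating sequences with Bowtie 1.1.2, aligned the rest with STAR 2.5.2b (genome GRCm38.p5) and used HTSeq for counting, the version of which is not given in the sources used here. The deposited RPKM and translation efficiency columns were not used. Genes with 128 or more reads summed over 4 libraries were fitted with edgeR 4.0.16 in R 4.3.3 (TMM factors, quasi-likelihood test, and the test against a 2-fold difference), with Benjamini-Hochberg adjustment over 14706 genes of all types and an adjusted p threshold of 0.05. DESeq2 1.42.0 was an alternative, beside other scalings, read minimums, a coefficient of variation fixed at 0.1, a replicate block, all libraries in 1 fit and leaving out each pool. SNI mRNA and sham footprint libraries were fitted likewise. In counts simulated for the sham comparison (14711 genes), the test called all 50 genes of each of the 4-, 3- and 0.25-fold sets and 94% of those at 1.5-fold.

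The genes named were the 12 in each direction with the largest fold change and the 8 with the largest RPKM difference, both among those over 2-fold without overlap of pools, preset anchors of the lists, up to 4 members a list in each direction with the largest change, up to 3 not called, and the 6 pan-neuronal genes nearest 0. Members of a family given by share of RPKM, overlapping genes and genes at the border of the read minimum were named in addition. The members and the lists were chosen with earlier results of these data known. Intervals and the floor of 3 reads per library cover counting error only, since reads are not independent molecules. Coordinates are those of GRCm38. Some genes that the rule names are not reported here.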

Additional observations from a re-analysis of the deposited data

Results flagged for a closer look

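The tissue difference of 3 named genes itself differed by over 2-fold between SNI and sham pools (edgeR test of the interaction against a 2-fold difference, Benjamini-Hochberg adjusted). Such a difference was found in 20 of 13560 genes (0.147%). For Mobp, the log2 fold change of DRG over spinal cord was lower by 2.95 in SNI than in sham (-2.95). Mobp had 3.44 and 2.64 CPM in SNI DRG and 21.4 and 21.1 CPM in sham DRG, beside 1640 and 1659 CPM in SNI spinal cord and 1428 and 1476 CPM in sham spinal cord. For the muscle genes Ckm and Myh4, a fast myosin heavy chain, the log2 fold change was larger in SNI by 2.05 and 2.64. Ckm had 20.1 and 19.4 CPM in SNI DRG and 4.99 and 6.16 CPM in sham DRG. Myh4 had 34.1 and 34.6 CPM in SNI DRG and 13.5 and 12.3 CPM in sham DRG. The summed level of the skeletal muscle genes with a value in all readouts was 617% of the cord level in SNI DRG and 231% in sham DRG.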

How the results depend on the processing

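No named gene changed direction under the 14 alternatives, and 157 of 167 kept their call under each one that gave a value. With the read minimum asked of every library instead of their sum, 10265 genes remained, and genes over 2-fold numbered 910 higher and 911 lower in sham mRNA, 1021 and 968 in SNI mRNA, and 555 and 498 in sham footprints. The gene list counts, summed over both directions, were then 480 calls, against 745. Fewer genes were tested under this setting, and 97 of the 167 named genes remained. List medians moved too. Of the non-peptidergic nociceptor and itch genes 3 remained (median 2.77), and of the inhibitory dorsal horn genes 2 (-5.52). The oligodendrocyte list kept 5 genes (-3.95) and the astrocyte list 16 (-2.90). The excitatory dorsal horn list kept 8 genes, 3 higher and 5 lower (-0.34). The microglia list kept 6 genes, 2 higher and 4 lower (-0.35). Library sizes alone gave 1540 higher and 1878 lower genes over 2-fold in sham mRNA, and DESeq2 gave 1383 and 1430. Leaving out 1 pool in turn gave 1507 to 1555 higher and 1594 to 1665 lower. Without DRG pool 1, the median of the sodium channel list was -0.21, against 0.17, and it held 6 higher and 7 lower genes, against 7 and 7. The small differences of Cspg4, Foxj1, Gabbr2 and Syt1 lost their call under 2 or more alternatives, while Asic1, Rps3 and Hoxc11 gained one under 2 or more. The median of the oxidative phosphorylation list lay on either side of 0 (-0.01 in the reported fit, 0.02 without DRG pool 1). Pools of the same number did not deviate together (r = 0.02 across 13560 genes), and with the replicate number as a block 1679 genes were over 2-fold higher and 1729 lower, with no call of a named gene changed. Depth limits the fold changes of genes with few reads in a tissue.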

Other observations

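Of 8 mural cell genes, 4 were higher and 4 lower in DRG, beside 41.9% and 42.4% of all genes. Myh11, the smooth muscle myosin, had 10.5 and 10.7 CPM in DRG and 1.68 and 1.91 CPM in spinal cord (2.56 ± 0.17), and Rgs5, a G protein regulator of pericytes, had 240 and 241 CPM in DRG and 82.0 and 75.1 CPM in spinal cord (1.61 ± 0.03). Vtn, vitronectin, which pericytes of the brain make, was the mural gene over 2-fold lower in DRG (-1.41 ± 0.05). Of 5 perineurial genes, 4 were higher and Ptch1, a hedgehog receptor that central glia also express, was lower (-1.11 ± 0.03). The perineurial integrin gene Itgb4 was at 0.44 ± 0.05.

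Shares of called genes varied between chromosomes. Of 454 measured X-linked genes, 44 (9.69%) were over 2-fold higher in DRG and 82 (18.1%) lower, beside 12.3% and 12.7% of all genes. Chromosome 14 had 18.1% higher and 11.8% lower, and chromosome 6 had 11.7% higher and 16.9% lower. Across chromosomes no test was made, since genes are not independent replicates.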
